A study of Mus musculus with 16 samples.

Results

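RNA sequencing of germinal vesicle (GV) oocytes from wildtype (WT) and Psma7 cKO mice is described here. Its members are the 8 GV libraries, 4 of each genotype, taken from the 16 libraries of the series by genotype and stage in the sample labels. The other 8 libraries are metaphase II (MII) eggs of both genotypes. They serve to compare the genotype effect between stages and in an alternative fit of all 16 libraries. Libraries were made by Smart-seq2 from small pools, 5 oocytes each by the labels and 10 by the paper, and primed with oligo-dT.

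The cKO females carry floxed Psma7 alleles and Zp3-Cre. The Zp3 promoter drives Cre in growing oocytes, so the follicular cells around them keep Psma7. Controls are labelled wildtype with no Cre stated, so effects of Cre and of Psma7 loss cannot be told apart. Both groups were females of 3 to 4 weeks, given 5 IU of PMSG, a gonadotropin that drives follicle growth. Oocytes were taken 44 h later from the ovary in M2 medium. The labels name no strain and do not say whether the 4 pools of a genotype come from separate females, so p-values here measure the spread between pools.

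The proteasome degrades proteins tagged with ubiquitin. Its 20S core is a barrel of alpha and beta subunits, in which Psma7 encodes the alpha 4 subunit, and the 19S particle at its end binds, unfolds and feeds in the substrate. A fully grown GV oocyte is arrested in meiotic prophase and has nearly stopped transcription, so its RNA is mostly a store made during growth.

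Values are FPKM, fragments scaled by transcript length and mapped fragments, so each is relative to its own library and says nothing of RNA per cell. The table has 28618 entries for 27987 gene names. Depth, read from the steps between the smallest values, was estimated at 15.3, 14.01, 13.8 and 11.2 M fragments in WT replicates 1 to 4. In cKO replicates 1 to 4 it was 12.8, 14.7, 15.7 and 10.5 M (exact permutation p = 0.886, two-sided). For the test, values under 1 FPKM were set to 1, and the 11062 entries averaging 1 FPKM or more across GV libraries were compared with limma on the log2 scale. An adjusted p (Benjamini-Hochberg) under 0.05 is the threshold for the words rose and fell. Log2 fold changes are cKO over WT.

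The transcriptome of Psma7 cKO GV oocytes stayed close to WT, with a small set of clear changes. Psma7 RNA fell from a mean of 165 ± 25.3 to 14.6 ± 2.81 FPKM (SD, n = 4 each). Mt1, a metal-binding metallothionein, went from 0.2299 ± 0.161 to 167 ± 34.2 FPKM, and Isg20 and Kctd21 rose to a few FPKM. In all, 11 transcripts rose (0.0994% of those tested) and 2 fell (0.0181%). Most other differences were small and leaned upward. At an unadjusted p under 0.05, 843 transcripts were higher (7.62%) and 339 lower (3.06%). The 4 cKO libraries lay wholly above the 4 WT libraries for 470 transcripts (4.25%) and wholly below them for 268 (2.42%).

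The upward lean depended in part on scaling. Among the unadjusted calls 71.3% were higher, and 59.9% after libraries were rescaled by their median ratio. Transcripts without overlap then numbered 363 higher and 353 lower. Rescaling moves all transcripts of a library alike, so this balance cannot decide whether the lean is real. Over all 11062 transcripts the median log2 fold change was 0.042, with 58.9% higher, and 0.012 with 52.7% higher after rescaling. Libraries were alike: the correlation across transcripts ran from 0.975 to 0.9896 within WT, from 0.981 to 0.989 within cKO and from 0.964 to 0.987 between them. The median size of a log2 fold change was 0.13. The 95% interval lay within 1.5-fold for 66.9% of transcripts and within 2-fold for 93.4%. A log2 fold change beyond 2-fold was found for 44 transcripts upward and 9 downward, of which 38 and 7 did not pass the adjusted threshold.

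Somewhat more of the table was detected in cKO oocytes. Entries at 1 FPKM or above numbered 11084, 10905, 10814 and 10916 in WT and 11299, 11093, 11183 and 11177 in cKO replicates 1 to 4. Every cKO library was above every WT library (exact permutation p = 0.0286, two-sided, the smallest that 70 arrangements allow). Summed FPKM and entries above 0 did not separate (exact permutation p = 0.943 and 0.343, two-sided). With transcripts cut into 5 equal bins by level, the median log2 fold change was 0.078 in the least abundant bin, then 0.075, 0.058 and 0.032, and 0.0013 in the most abundant, which turned to -0.029 after rescaling while the others stayed above 0. Without WT and cKO replicate 3, the bins were at 0.054, 0.041, 0.027, 0.012 and 0.019, a flatter slope.

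A pair of libraries stands apart from the rest. On the first principal component, with 32.0% of the variance, WT replicate 3 lay at -36.3 and cKO replicate 3 at 24.7, and the other 6 libraries between -4.27 and 10.8 (exact permutation p for genotype = 0.114, two-sided). Medians of gene lists below are therefore also given without this pair, an alternative chosen after seeing the data. In that fit of 3 against 3 libraries, 4 transcripts rose and 2 fell.

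The cells match their label. All 12 oocyte markers were detected, from Figla, an oocyte transcription factor, at 17.8 FPKM to Zp3, a zona pellucida glycoprotein, at a mean of 4062 FPKM. Their sum was 17973, 17867, 18594 and 18492 FPKM in WT and 18714, 17653, 18013 and 18855 FPKM in cKO oocytes (exact permutation p = 0.743, two-sided). Of 21 cumulus and granulosa markers in the table, 16 stayed under 1 FPKM in each library. Foxl2, Amh and Fst among them had means of 0.00324, 0.0103 and 0.0291 FPKM, with Tnfaip6 at 0. Inha had 0.29 and Fshr 0.558 FPKM. Past the filter, beside Cyp19a1, were Kitl at 4.34, Nr5a2 at 3.38, Cyp11a1 at 1.73 and Cdh2 at 1.40 FPKM. The sum of the list ran from 19.4 to 22.3 FPKM in WT and was 25.4, 21.6, 23.1 and 24.9 FPKM in cKO oocytes (exact permutation p = 0.0571, two-sided), led by Cyp19a1 at 8.85 FPKM. The part of this sum in any other result was not tested. The 5 of these markers past the filter had a median log2 fold change of 0.26, with 4 higher, against 0.042 over all transcripts. Fst was at 0 in all WT libraries and at 0.082, 0.0955, 0.0223 and 0.0332 FPKM in cKO replicates 1 to 4. Inha had 0.136, 0.186, 0.0756 and 0.185 FPKM in WT and 0.815, 0.462, 0.0665 and 0.396 FPKM in cKO oocytes.

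Markers of further cells were low. The theca and stroma list summed to at most 4.25 FPKM in any library, with Col3a1 at 0. Dcn led it at 2.45 FPKM (log2 fold change 0.68). Among 11 immune markers C1qb alone was abundant (57.6 FPKM), while its partner C1qa was at 0.0666 FPKM, the leukocyte gene Ptprc at 0.00756 and Cd74 at 0. Cd68 had a mean of 1.64 FPKM. Pecam1 led the endothelial markers at 13.8 FPKM, and the erythroid gene Hba-a1 was at 0. No marker of any list passed the adjusted threshold. None passed an unadjusted p of 0.05 in limma, beside 7.62% higher and 3.06% lower of all transcripts.

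**Figure D1:**
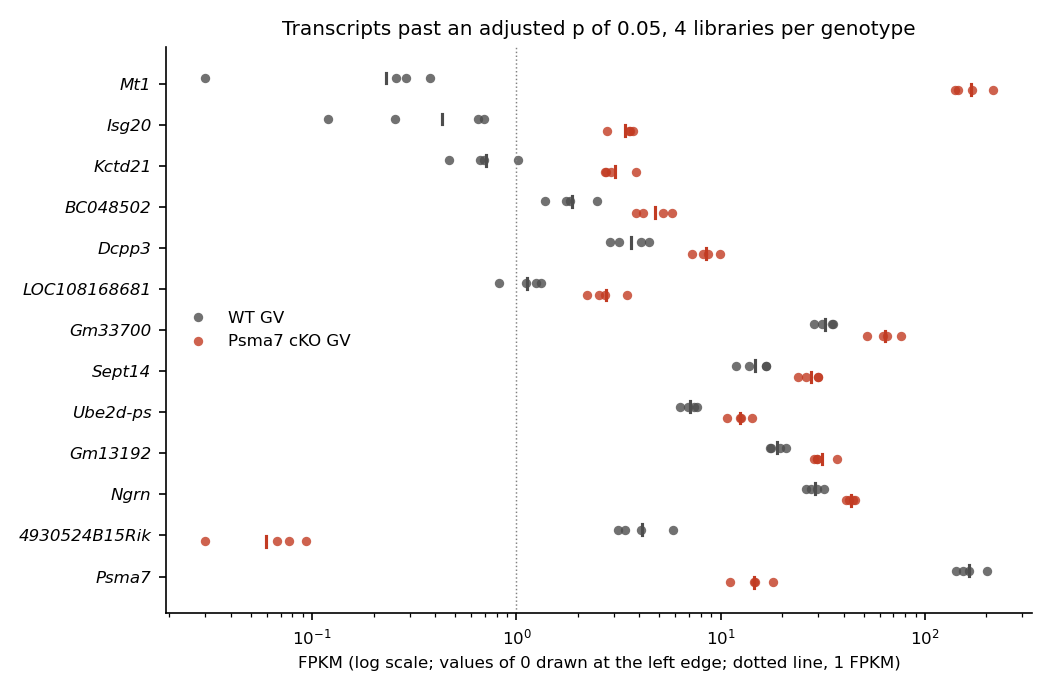
FPKM of the 13 transcripts past the adjusted threshold in each GV library, on a log axis; dots are libraries, short lines are group means and the dotted line marks 1 FPKM. The 4 libraries of each genotype do not overlap for any of the 13.

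Psma7 itself read 154, 142, 201 and 164 FPKM in WT and 14.6, 14.7, 11.1 and 17.98 FPKM in cKO oocytes (log2 fold change -3.51 ± 0.152 SE, adjusted p = 8.98e-07). Each cKO library was far below each WT library, and all kept some Psma7 signal. Whether that signal is RNA of deleted alleles, undeleted alleles or other cells cannot be told apart in gene-level FPKM. In MII eggs the log2 fold change was -1.83 (adjusted p = 0.0359), and the test of the difference between stages gave an adjusted p of 0.0851. Of the 10 genes next to Psma7 on chromosome 2 none passed an unadjusted p of 0.05, beside 7.62% higher and 3.06% lower of all transcripts. Their median log2 fold change was 0.0020, or -0.029 after rescaling and 0.068 without WT and cKO replicate 3.

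Mt1 was 0.257, 0.376, 0.286 and 0 FPKM in WT and 170.3, 139.5, 145 and 214 FPKM in cKO oocytes. Off in WT and abundant in all cKO libraries, it had the highest log2 fold change of all (log2 fold change 7.36 ± 0.138 SE, adjusted p = 2.39e-10), at least 167-fold between group means with WT set to the floor. Metallothioneins bind zinc and copper, and Mt1 and Mt2 lie side by side at chr8:94179082-94180327 and chr8:94172664-94173568 (GRCm38) and answer to the same metals. Mt2, chosen after its values were seen, was at 0 in all libraries but cKO replicate 1, which had 0.141 FPKM. Of the 12 tested metallothioneins and zinc transporters none but Mt1 passed an unadjusted p of 0.05, beside 7.62% higher and 3.06% lower of all transcripts. Mt1 was equally off in WT eggs and on in cKO eggs (51.9, 33.2, 113 and 63.04 FPKM). The high libraries are those with Zp3-Cre, and some Cre transgenes carry a polyadenylation sequence of Mt1, so signal from the Mt1 gene and from the transgene cannot be told apart here.

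Isg20 stood at 0.255, 0.1196, 0.648 and 0.695 FPKM in WT and 3.71, 3.54, 2.78 and 3.61 FPKM in cKO oocytes. Isg20 encodes an exonuclease that degrades single-stranded RNA and is induced by interferon. The groups were far apart (log2 fold change 1.76 ± 0.143 SE, adjusted p = 0.000425), an estimate with all WT values set to the floor. In eggs the log2 fold change was 0.22, with a stage difference that did not pass (adjusted p = 0.148). Of the 8 interferon-stimulated genes tested, Isg20 was the only one past an unadjusted p of 0.05, beside 7.62% higher and 3.06% lower of all transcripts. The other 21 of the 29 in the table were under the filter. The list median was 0.052, or 0.031 without WT and cKO replicate 3.

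Kctd21 read 1.01, 0.692, 0.469 and 0.662 FPKM in WT and 2.71, 2.74, 2.89 and 3.84 FPKM in cKO oocytes. This adaptor of a cullin ubiquitin ligase was higher in every cKO library (log2 fold change 1.59 ± 0.153 SE, adjusted p = 0.00141). Eggs of both genotypes were under the floor, so eggs give no value to compare. The opposite pattern belongs to the uncharacterized gene 4930524B15Rik. It had 4.06, 5.84, 3.41 and 3.14 FPKM in WT and 0.0766, 0.0669, 0 and 0.0931 FPKM in cKO GV oocytes, and fell under the floor in all 4 (log2 fold change -1.996 ± 0.193 SE, adjusted p = 0.00141). In WT eggs it was under 0.1 FPKM, and cKO eggs had 0, 3.49, 5.35 and 3.91 FPKM in replicates 1 to 4. The direction turned around between stages (difference -3.54, adjusted p = 0.00706), with both sizes limited by the floor. In eggs alone the log2 fold change of 1.55 did not pass (adjusted p = 0.0606), and cKO egg replicate 1 lacked this transcript as well.

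The other 8 transcripts that rose were moderate changes. Gm33700, a pseudogene on chromosome 9, had 35.4, 28.7, 35.05 and 31.1 FPKM in WT and 76.1, 62.5, 52.1 and 64.98 FPKM in cKO oocytes (log2 fold change 0.97 ± 0.124 SE, adjusted p = 0.0175). Dcpp3, a secreted protein of the Dcpp cluster, had 2.86, 4.06, 4.45 and 3.18 FPKM in WT and 8.16, 7.23, 8.63 and 9.92 FPKM in cKO oocytes (log2 fold change 1.24 ± 0.169 SE, adjusted p = 0.0279). Sept14, a septin of the cytoskeleton, had 11.8, 13.8, 16.6 and 16.7 FPKM in WT and 29.9, 23.97, 26.2 and 30.04 FPKM in cKO oocytes (log2 fold change 0.91 ± 0.134 SE, adjusted p = 0.0385). None of these overlapped between genotypes. In eggs Sept14 had a log2 fold change of 0.87 (adjusted p = 0.119). Dcpp3 was under the floor in all WT eggs and had 1.89, 0.972, 3.25 and 3.16 FPKM in cKO eggs, so the size of its difference there cannot be read.

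BC048502, without a known function, had a log2 fold change of 1.36, adjusted p 0.0398, LOC108168681 of 1.21, adjusted p 0.0385 and Ube2d-ps, a pseudogene-named relative of the ubiquitin-conjugating Ube2d enzymes, of 0.82, adjusted p 0.0385. Gm13192, a pseudogene on chromosome 2, followed at 0.72, adjusted p 0.0464 and Ngrn, a factor for the mitochondrial ribosome, at 0.59, adjusted p 0.0478. BC048502 differed between stages (-0.059 in eggs, difference 1.42, adjusted p = 0.0175). Of the 13 called transcripts, Psma7, Mt1, Isg20, Kctd21 and 4930524B15Rik passed in each of the 8 fits that left out 1 library. LOC108168681 and Gm13192 passed in none of them, Ngrn in 1 and the other 5 in 2 to 4. By library, 11 transcripts rose with all libraries, 4 without WT replicate 2, 3 without WT replicate 4, 3 without cKO replicate 1, 7 without cKO replicate 3 and 3 without cKO replicate 4. Without cKO replicate 2, 4 fell in place of 2.

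Over 3-fold between group means but short of the threshold were Ccl2 and Mir7211. Ccl2 was 8.25, 5.93, 3.24 and 3.86 FPKM in WT and 24.2, 17.6, 14.03 and 8.72 FPKM in cKO oocytes. This chemokine was above WT in each cKO library (log2 fold change 1.60, adjusted p 0.106). Mir7211 was 1.03, 5.67, 3.46 and 4.24 FPKM in WT and 0, 0, 0 and 0 FPKM in cKO oocytes (-1.61, adjusted p 0.184), a microRNA entry without overlap. Its annotated span, chr10:94586137-94586199, is so short that these values can rest on very few fragments. Libraries primed with oligo-dT do not measure the mature microRNA. Nfkbia, the inhibitor that holds NF-kappaB in the cytoplasm, had 29.5, 25.6, 29.04 and 25.8 FPKM in WT and 20.8, 18.6, 21 and 15.4 FPKM in cKO oocytes (-0.54, adjusted p 0.109), without overlap. Among 7 tested chemokines and NF-kappaB targets, 6 were higher and the median was 0.057, or 0.13 without WT and cKO replicate 3. Just outside the threshold, and chosen after their values were seen, were the growth factor receptor Egfr (8.89, 12.7, 10.1 and 12.5 FPKM in WT, 20.2, 20.02, 16.6 and 20.6 FPKM in cKO; 0.82, adjusted p 0.0561), the cytokine Tnfsf13b (0.86, adjusted p 0.0553) and Asgr2(1), an entry of a lectin receptor gene (-1.13, adjusted p 0.0561).

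The other proteasome genes showed no change past the threshold. None of the 6 tested alpha subunits, 7 beta subunits or 19 subunits of the 19S particle passed the adjusted threshold, and 1 of the 32, in the 19S particle, passed an unadjusted p of 0.05, beside 7.62% higher and 3.06% lower of all transcripts. Psma2 was the most abundant alpha subunit at 283 ± 59.6 in WT and 260.5 ± 48.9 FPKM in cKO oocytes (SD, n = 4 each). Psmb2 led the beta subunits at 368 ± 75.98 and 343 ± 24.6 FPKM, and Psmd4, a ubiquitin receptor of the 19S particle, had 476 ± 20.4 and 491 ± 29.98 FPKM. Psmd9, a chaperone of 19S assembly, was the member of the assembly list without overlap: 69.8, 68.1, 66.9 and 70.9 FPKM in WT and 85.4, 88.4, 83.5 and 77.2 FPKM in cKO oocytes (0.28, adjusted p 0.211). In eggs Psmd9 had a log2 fold change of 0.29 (adjusted p = 0.0411).

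For the 20S core these averages hide a pair of libraries that pull in opposite directions. The median deviation of the beta subunits from the mean of all 8 libraries was -0.11, -0.042, 0.34 and -0.019 in WT and 0.052, -0.11, -0.24 and 0.13 in cKO replicates 1 to 4. WT replicate 3 was the highest and cKO replicate 3 the lowest of the 8. With all libraries 2 of 7 beta and 3 of 6 alpha subunits were higher in cKO, with medians of -0.050 and -0.0016. Without WT and cKO replicate 3, 7 of 7 beta and 6 of 6 alpha subunits were higher, with medians of 0.14 and 0.17. The remaining libraries still overlapped between genotypes. cKO replicate 2 lay at -0.11 for beta and -0.072 for alpha subunits, below WT replicate 4 at -0.019 and 0.014. The 19S particle had 14 of 19 higher and a median of 0.048, near the 0.042 of all transcripts. Without the pair it was at 0.065, and all transcripts at 0.0285. In eggs the medians were 1.16 for beta, 0.53 for alpha and 0.44 for 19S subunits. Differences between stages were not tested for lists.

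The same pair of libraries weighed on the ribosomal and respiratory genes. Large ribosomal subunit genes deviated by -0.085, -0.30, 0.31 and 0.10 in WT and 0.070, -0.10, -0.37 and 0.36 in cKO replicates 1 to 4. Both the lowest and the highest library were cKO, replicates 3 and 4, so the groups overlap fully. The median log2 fold change of the 49 large subunit genes was -0.0012, with 24 of 49 higher, and of the 31 small subunit genes -0.0084, with 15 of 31 higher. Without the pair it was 0.20 with 44 of 49 higher and 0.24 with 28 of 31 higher. Respiratory complexes II to V went from -0.012 to 0.14, complex I from -0.030 to 0.13 and mitochondrial ribosomal proteins from 0.023, or -0.0078 after rescaling, to 0.15. In eggs these lists stood at 0.80, 0.89, 0.67, 0.86 and 0.67. No ribosomal protein gene passed the adjusted threshold in GV oocytes, and 2 large subunit genes were higher and 0 lower at an unadjusted p under 0.05, beside 7.62% and 3.06% of all transcripts. Short transcripts as a whole shifted as well: of 5 equal bins by transcript length, the shortest went from 0.034 to 0.12 without the pair. The others went from 0.063, 0.069, 0.052 and -0.000831 to 0.031, 0.012, -0.0086 and -0.0057, with the shortest at 0.0036 and the longest at -0.032 after rescaling of all libraries. Whether length accounts for the shift of the proteasome, ribosomal and respiratory lists was not tested.

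**Figure D2:**
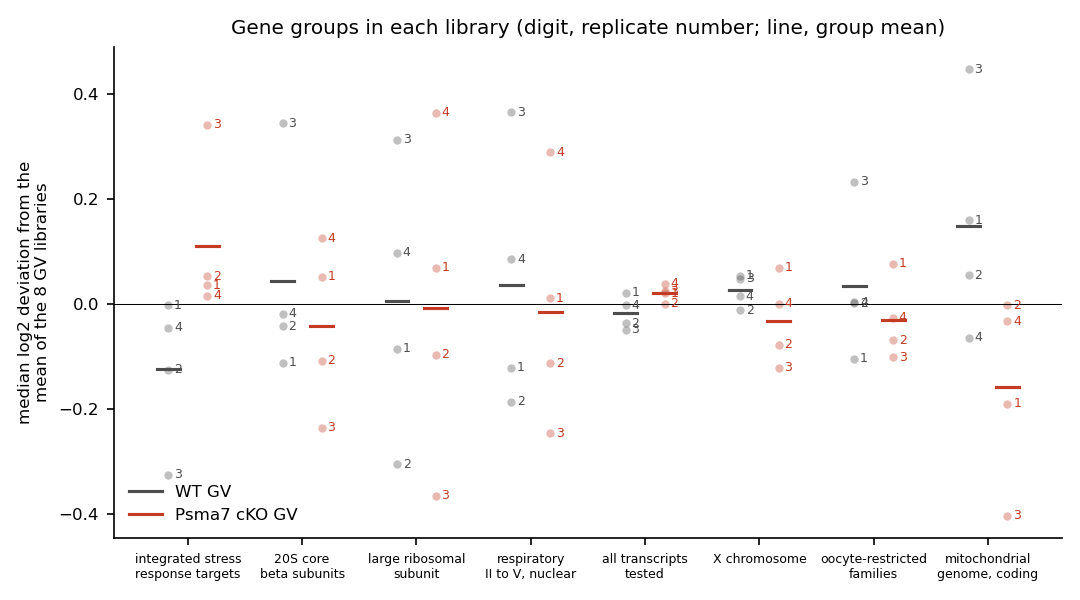
Median log2 deviation of gene groups from the mean of the 8 GV libraries; digits are replicate numbers and lines are group means. WT replicate 3 and cKO replicate 3 lie far apart in most groups; stress response targets are lowest in the former and highest in the latter.

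Listed nuclear genes for mitochondria differed in both directions, none of them past the adjusted threshold. By an unadjusted p under 0.05, 1 of 37 complex I subunits was higher and 1 lower, 1 of 39 subunits of complexes II to V higher and 0 lower, and 3 of 22 genes of the tricarboxylic acid cycle higher and 1 lower. Cyc1, cytochrome c1 of respiratory complex III, had 13.7, 11.96, 12.4 and 12.7 FPKM in WT and 19.3, 17.9, 17.9 and 16.7 FPKM in cKO oocytes. The groups did not overlap, yet it missed the threshold (0.50, adjusted p 0.0854). In eggs its log2 fold change was 1.84 (adjusted p = 0.03498). Of 74 mitochondrial ribosomal proteins 7 were higher and 0 lower by the same measure, beside 7.62% and 3.06% of all transcripts. Mrpl49 had 3.64, 3.32, 3.497 and 3.56 FPKM in WT and 5.45, 4.48, 4.56 and 4.97 FPKM in cKO oocytes (0.47, adjusted p 0.185). Mrpl20 (0.67, adjusted p 0.185), Mrpl44 (0.34, adjusted p 0.281) and Mrpl4 (0.22, adjusted p 0.365) were also free of overlap.

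Protein-coding transcripts of the mitochondrial genome leaned down, and its ribosomal RNAs were split. Of those 2 ribosomal RNAs 1 was higher, with a median of -0.093 that turned to 0.19 without WT and cKO replicate 3. mt-Rnr2 was 1556, 1188, 1778 and 1368 FPKM in WT and 2364, 1483, 894 and 1674 FPKM in cKO oocytes, with overlap (0.056, adjusted p 0.956). The protein-coding list, added after the names in the table were seen, has 13 protein-coding genes, 9 of them tested. All 9 were lower in cKO oocytes, with a median log2 fold change of -0.31 and a range of -0.52 to -0.20, and 4 were lower at an unadjusted p under 0.05, beside 3.06% of all transcripts, with none past the adjusted threshold. ND1, a complex I subunit, had 566, 401, 566 and 431 FPKM in WT and 382, 406, 364 and 412 FPKM in cKO oocytes. COX1, of complex IV, had 1056, 877, 1169.8 and 908 FPKM in WT and 871, 899, 708 and 758 FPKM in cKO oocytes. Both overlap between genotypes, and so do CYTB (-0.35, adjusted p 0.328), ND6 (-0.52, adjusted p 0.382), ND2 (-0.35), ND4 (-0.21), ND5 (-0.25), ATP6 (-0.38) and COX2 (-0.20). Genes of a list are not independent replicates. By library this list deviated by 0.16, 0.055, 0.45 and -0.064 in WT replicates 1 to 4. In cKO replicates 1 to 4 it deviated by -0.19, -0.0025, -0.40 and -0.032, so the groups overlap. The median log2 fold change ran from -0.37 to -0.23 as single libraries were left out. It was -0.15 without WT and cKO replicate 3, with 2 of 9 then higher. In eggs all 9 were lower as well, with a median of -0.52. The libraries were primed on poly(A), so these values count polyadenylated mitochondrial RNA.

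With all libraries kept, genes of the integrated stress response had the highest median of the 66 lists. This pathway raises translation of the factor ATF4, which turns on amino acid synthesis and stress genes. Atf4 itself had 143, 93.6, 90.8 and 135 FPKM in WT and 163, 171, 156 and 184 FPKM in cKO oocytes. Each cKO library was above each WT library, short of the threshold (0.57, adjusted p 0.185). The list holds 20 tested genes, Atf4 among them, and 19 were higher, beside 58.9% of all transcripts, with a median of 0.23 against 0.042 over all. At an unadjusted p under 0.05, 2 were higher, Atf4 included, beside 7.62% of all. After rescaling the median was 0.20. Library by library the list deviated by -0.0023, -0.12, -0.32 and -0.045 in WT and 0.036, 0.053, 0.34 and 0.016 in cKO replicates 1 to 4. Leaving out single libraries gave 0.16 to 0.30, and leaving out WT and cKO replicate 3 gave 0.042 with 14 of 19 higher. Other lists lay above it without that pair, such as small ribosomal subunit genes at 0.24.

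In cKO replicate 3 Asns and Fgf21 were far above all other libraries. Asns, which makes asparagine, had 3.46, 3.09, 3.15 and 2.12 FPKM in WT and 1.94, 1.96, 15.3 and 2.31 FPKM in cKO oocytes. Without that library its log2 fold change was -0.50, against 0.23 with it. Fgf21, a secreted hormone, was at 2.31 FPKM in cKO replicate 3 and at most 0.0699 FPKM elsewhere. Chac1, which degrades glutathione, had 3.12, 1.501, 1.34 and 2.098 FPKM in WT and 3.14, 2.22, 3.83 and 2.36 FPKM in cKO oocytes (0.56, adjusted p 0.509), and Trib3, a pseudokinase of the same response, 0.763, 0.8004, 0.389 and 1.301 and 1.83, 0.999, 1.84 and 1.39 FPKM (0.46, adjusted p 0.482). Both overlap between genotypes. These 4 genes were chosen after their values were seen.

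Some promoters of the listed targets hold the same short sequence. The core of the amino acid response element, TGATGNAAN on either strand, occurs in the 250 bases before the start of 8 of the 27 listed targets with a promoter in RefSeq (29.6%), in 3.89% of all 27025 genes and in 2.64% of tested ones. The list was made of targets known beforehand, so the 29.6% describes the list and says nothing of cKO oocytes. Of the 8, 4 were tested, and Vldlr, Nupr1, Pycr1 and Fgf21 lay under the filter. Among transcripts higher at an unadjusted p under 0.05 the core occurs in 2.81% of promoters, close to the 2.64% of tested ones, and among lower ones in 4.38%. Chac1, Asns and Fgf21 are shown because each holds it and each was at its highest in cKO replicate 3. For Chac1 the margin was small: 3.83 FPKM there, beside 3.14 in cKO replicate 1 and 3.12 in WT replicate 1. The sequences are the 250 bases upstream of the RefSeq start in GRCm38.p6, at chr2:119350992-119351241 on the plus strand for Chac1, chr6:7693210-7693459 on the minus strand for Asns and chr7:45615491-45615740 on the minus strand for Fgf21. Capitals mark the match. A match describes the letters and shows no binding.
Chac1: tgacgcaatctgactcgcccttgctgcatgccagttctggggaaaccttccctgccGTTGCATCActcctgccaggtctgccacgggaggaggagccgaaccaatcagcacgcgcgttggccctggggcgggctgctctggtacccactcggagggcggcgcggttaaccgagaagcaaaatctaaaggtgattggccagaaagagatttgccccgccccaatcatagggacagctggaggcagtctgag
Asns: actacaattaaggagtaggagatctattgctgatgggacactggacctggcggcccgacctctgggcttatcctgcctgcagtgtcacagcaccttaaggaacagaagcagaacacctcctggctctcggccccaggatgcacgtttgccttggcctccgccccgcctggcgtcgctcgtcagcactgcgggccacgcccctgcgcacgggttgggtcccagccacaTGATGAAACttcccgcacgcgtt
Fgf21: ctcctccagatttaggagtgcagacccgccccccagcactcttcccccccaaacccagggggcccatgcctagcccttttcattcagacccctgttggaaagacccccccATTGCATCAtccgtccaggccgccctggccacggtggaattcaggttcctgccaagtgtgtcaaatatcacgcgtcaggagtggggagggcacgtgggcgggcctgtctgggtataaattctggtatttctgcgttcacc

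Other branches of protein quality control moved little. Hspb1, a small heat shock protein that holds misfolded proteins, had 3.61, 6.48, 6.35 and 4.04 FPKM in WT and 11.9, 17.1, 9.27 and 9.79 FPKM in cKO oocytes. It did not overlap between genotypes and missed the threshold (1.23, adjusted p 0.0902), and in eggs its log2 fold change was -0.0042. It was the only one of 21 heat shock genes past an unadjusted p of 0.05, beside 7.62% higher and 3.06% lower of all transcripts. The list median was 0.034, or -0.028 without WT and cKO replicate 3, and the abundant chaperone Hsp90aa1 had 1991 ± 258 and 2062 ± 177 FPKM. Among chaperones and stress genes of the endoplasmic reticulum 18 of 27 were higher (median 0.061, -0.022 without the pair), beside 58.9% of all transcripts, and 3 were higher at an unadjusted p under 0.05, beside 7.62% of all. One of them was the transcription factor Xbp1, chosen after its values were seen (1.25, 0.508, 0.517 and 0.317 FPKM in WT, 2.65, 1.43, 2.303 and 0.761 FPKM in cKO; 0.70, adjusted p 0.401), with overlap.

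In the ubiquitin system, genes that handle tagged proteins leaned up with all libraries kept. Of 24 ubiquitin shuttles, p97 cofactors and aggregate receptors 19 were higher, beside 58.9% of all transcripts, with a median of 0.14. At an unadjusted p under 0.05, 2 were higher and 0 lower, beside 7.62% and 3.06% of all. Without WT and cKO replicate 3, 14 of 24 were higher and the median was 0.020, against 0.0285 over all transcripts. Ubxn1, a p97 cofactor, had 35.9, 32.4, 35.1 and 34.5 FPKM in WT and 41.9, 43.7, 41.5 and 44.1 FPKM in cKO oocytes (0.31, adjusted p 0.1695), without overlap. Of the ubiquitin-conjugating enzymes 14 of 34 were higher, with a median of -0.038, which turned to 0.014 without the pair; 1 was higher and 3 lower at an unadjusted p under 0.05, beside 7.62% and 3.06% of all transcripts. The higher one was Ube2d-ps, which rose (log2 fold change 0.82, adjusted p 0.0385). Ube2f, which conjugates NEDD8, had 34.7, 33.9, 39.1 and 33.9 FPKM in WT and 31.6, 28.5, 31.4 and 28.8 FPKM in cKO oocytes (-0.23, adjusted p 0.379), and Ube2q1 was also without overlap (-0.42, adjusted p 0.415). Ubb, the main ubiquitin gene, had 4097 ± 493 and 3939 ± 252 FPKM, and its log2 fold change of -0.051 differed from 1.11 in eggs (adjusted p of the difference = 0.0108). F-box genes, which pick substrates for a ubiquitin ligase, had a median of 0.0039 (-0.027 after rescaling, -0.0022 without the pair). Of 63 tested, 3 were higher and 1 lower at an unadjusted p under 0.05, beside the same shares of all. The lower one was Fbxo30, below WT in each cKO library (-0.31, adjusted p 0.302).

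Vesicle traffic held several small differences. Rab GTPases direct membrane transport, and 27 of 38 were higher in cKO oocytes (median 0.080), against 58.9% of all transcripts. At an unadjusted p under 0.05, 7 were higher and 1 lower, beside 7.62% and 3.06% of all transcripts. Without WT and cKO replicate 3, 22 of 38 were higher (median 0.035). Rab24 had 2.63, 1.02, 2.15 and 2.12 FPKM in WT and 4.02, 2.89, 4.57 and 3.73 FPKM in cKO oocytes (1.004, adjusted p 0.203). Rab1a, of transport from the endoplasmic reticulum, had 33.8, 25.9, 29.2 and 26.5 FPKM in WT and 39.5, 34.5, 37.1 and 34.3 FPKM in cKO oocytes (0.34, adjusted p 0.271). Rab5a of early endosomes (0.55, adjusted p 0.272) and Rab13 (0.48, adjusted p 0.269) were likewise without overlap.

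Lysosomal genes were mixed: 11 of 19 were higher in cKO oocytes, as were 19 of 29 autophagy genes, beside 58.9% of all transcripts. Lamp1, the most abundant of the lysosomal list, was steady at 303 ± 35.6 in WT and 303 ± 22.5 FPKM in cKO oocytes (SD, n = 4 each). A few genes were lower. Rab7, which drives fusion with lysosomes, had 241, 269.9, 238 and 262 FPKM in WT and 229.9, 221, 225 and 216 FPKM in cKO oocytes (-0.18, adjusted p 0.447). Lgmn, a lysosomal protease, had 33.6, 35.4, 32.1 and 27.5 FPKM in WT and 22.8, 23.9, 25.1 and 19.4 FPKM in cKO oocytes (-0.50, adjusted p 0.124). Lamp2, a lysosomal membrane protein (-0.36, adjusted p 0.414), and Atg2b, a lipid transfer protein of autophagy (-0.35, adjusted p 0.401), were also lower without overlap. Rab7 and Lgmn had log2 fold changes of 0.26 and 0.56 in eggs, and the stage differences passed (adjusted p = 0.0465 for both). As a list, lysosomal genes had a median of 0.023, -0.0075 after rescaling and -0.11 without WT and cKO replicate 3. Its sign therefore depends on the scaling and on the libraries used. Autophagy genes had 0.064 (0.023 without the pair) and V-ATPase subunits 0.081 (0.077). Prdx4, a peroxidase of the secretory pathway, stood at 2.47, 2.71, 3.11 and 2.44 FPKM in WT and 6.21, 3.74, 3.19 and 3.203 FPKM in cKO oocytes (0.56, adjusted p 0.384), within a redox list whose median was 0.029, -0.0018 after rescaling and 0.13 without the pair.

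RNA handling genes gave scattered members. Spliceosome genes had 23 of 36 higher and a median of 0.085 (0.087 without WT and cKO replicate 3). The splicing factor Srsf2 had 50.8, 43.5, 40.05 and 49.5 FPKM in WT and 61.5, 59.8, 54.2 and 58.3 FPKM in cKO oocytes (0.35, adjusted p 0.211), and Srsf6 had 0.43, adjusted p 0.222. Cnot11, of the deadenylase that shortens poly(A) tails, had 0.29, adjusted p 0.379, in a decay list with a median of -0.025 (-0.0018 without the pair). Zar1, which stores maternal mRNA in a membraneless store around mitochondria, was the most abundant storage factor. Zar1 read 316, 279, 261 and 368 FPKM in WT and 349.9, 474, 498 and 352 FPKM in cKO oocytes (0.44, adjusted p 0.293). The groups overlap slightly. Tdrkh, of the piRNA pathway (-0.25, adjusted p 0.337), and Eif2s2, a subunit of the initiation factor that brings in the first tRNA (-0.19, adjusted p 0.453), were lower without overlap. Initiation factors had a median of -0.0016 (0.017 without the pair), and elongation and release factors of 0.12 (0.043).

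Genes that define the oocyte differed little and in both directions. Zp3 had 3977 ± 73.5 and 4146 ± 197 FPKM, Gdf9, a growth factor for granulosa cells, 2790.1 ± 400.2 and 2909 ± 363 FPKM, and Bcl2l10, the most abundant of the oocyte-restricted list, 5035 ± 496 and 4832 ± 514 FPKM. In that list 10 of 45 were higher, beside 58.9% of all transcripts, with a median of -0.067. Its median turned to 0.014, with 29 of 45 higher, without WT and cKO replicate 3. Of zona pellucida, egg membrane and cortical granule genes 8 of 11 were higher (median 0.040, 0.00042 without the pair). Tcl1b5(2), an entry of an oocyte Tcl1 gene, had 83.4, 82.4, 79.5 and 75.9 FPKM in WT and 60.7, 59.96, 46.1 and 65.1 FPKM in cKO oocytes (-0.48, adjusted p 0.124). Its log2 fold change in eggs was 0.16 (difference adjusted p = 0.0384). Zp3 differed between stages too, at 0.059 in GV oocytes and 1.20 in eggs (adjusted p = 0.0238).

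Within the maternal complexes Khdc3 stood out. It belongs to the subcortical maternal complex, which the early embryo needs, and had 174, 187, 145 and 153 FPKM in WT and 258, 202, 248 and 201 FPKM in cKO oocytes. The groups did not overlap (0.46, adjusted p 0.166), and in eggs the log2 fold change was 1.09 (adjusted p = 0.0338). Nlrp4b, an oocyte NLR gene, had 342, 351, 368 and 338 FPKM in WT and 315, 294, 301 and 300.2 FPKM in cKO oocytes (-0.21, adjusted p 0.328). Efna5, an ephrin ligand, had 10.4, 11.6, 12 and 10.5 FPKM in WT and 8.54, 8.21, 8.82 and 8.73 FPKM in cKO oocytes (-0.37, adjusted p 0.203). The medians were 0.048 for the subcortical complex, -0.062 for other oocyte Nlrp genes and -0.077 for signals to the follicle, and without WT and cKO replicate 3 they were 0.023, -0.013 and -0.064. Rescaling changed none of these signs.

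Genes of chromosome cohesion leaned down. Of 18 cohesin and separase genes, which hold and release sister chromatids in meiosis, 5 were higher, with a median of -0.087, against 0.042 over all transcripts. The median was -0.12 after rescaling and -0.030 without WT and cKO replicate 3. At an unadjusted p under 0.05, 1 was higher and 1 lower, beside 7.62% and 3.06% of all transcripts. In eggs 1 of 17 was higher, with a median of -0.22. Sgol1, the protector of centromeric cohesion, had 26.6, 29.1, 27.3 and 24.97 FPKM in WT and 22.3, 24.8, 23.4 and 21.96 FPKM in cKO oocytes (-0.23, adjusted p 0.404), without overlap. Cenpi, of the inner kinetochore, had 4.38, 4.07, 4.7 and 4.12 FPKM in WT and 3.68, 2.898, 2.96 and 2.56 FPKM in cKO oocytes (-0.52, adjusted p 0.204). The kinetochore list had 14 of 35 higher and a median of -0.046 (-0.016 without the pair). Brca2, of DNA repair, was lower without overlap (-0.20, adjusted p 0.461), in a repair list with a median of 0.011 (-0.020 after rescaling, -0.046 without the pair).

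Tubulin isotypes and folding cofactors had 15 of 20 higher and a median of 0.10, which ran from 0.0035 to 0.20 as single libraries were left out and was 0.025 without WT and cKO replicate 3. Kinesin motors had a median of 0.060, which turned to -0.016 without the pair. Tbcc, a tubulin folding cofactor, had 36.6, 36.95, 38.03 and 36.3 FPKM in WT and 51.2, 51.4, 52 and 39.2 FPKM in cKO oocytes (0.38, adjusted p 0.203). Tuba1a, an alpha tubulin near the floor, had 1.19, 0.987, 0.4105 and 0.951 FPKM in WT and 1.72, 2.79, 3.13 and 1.43 FPKM in cKO oocytes (1.04, adjusted p 0.1302). Among spindle pole genes Haus2 (0.55, adjusted p 0.261), Cep152 (0.42, adjusted p 0.327) and Tubgcp3 (0.35, adjusted p 0.396) were higher without overlap, with a list median of 0.031 below that of all transcripts, which rescaling brought to -9.0e-05 (0.0047 without the pair). The histone variant H2afj (0.45, adjusted p 0.276) and Diablo, which releases caspases from their inhibitors (0.39, adjusted p 0.281), were also above WT in each cKO library. Lists for cell death were mixed: the Bcl2 family had a median of 0.060 (0.055 without the pair) and p53 targets of -0.078 (-0.23), each changing sign when certain single libraries were left out.

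**Figure D3:**
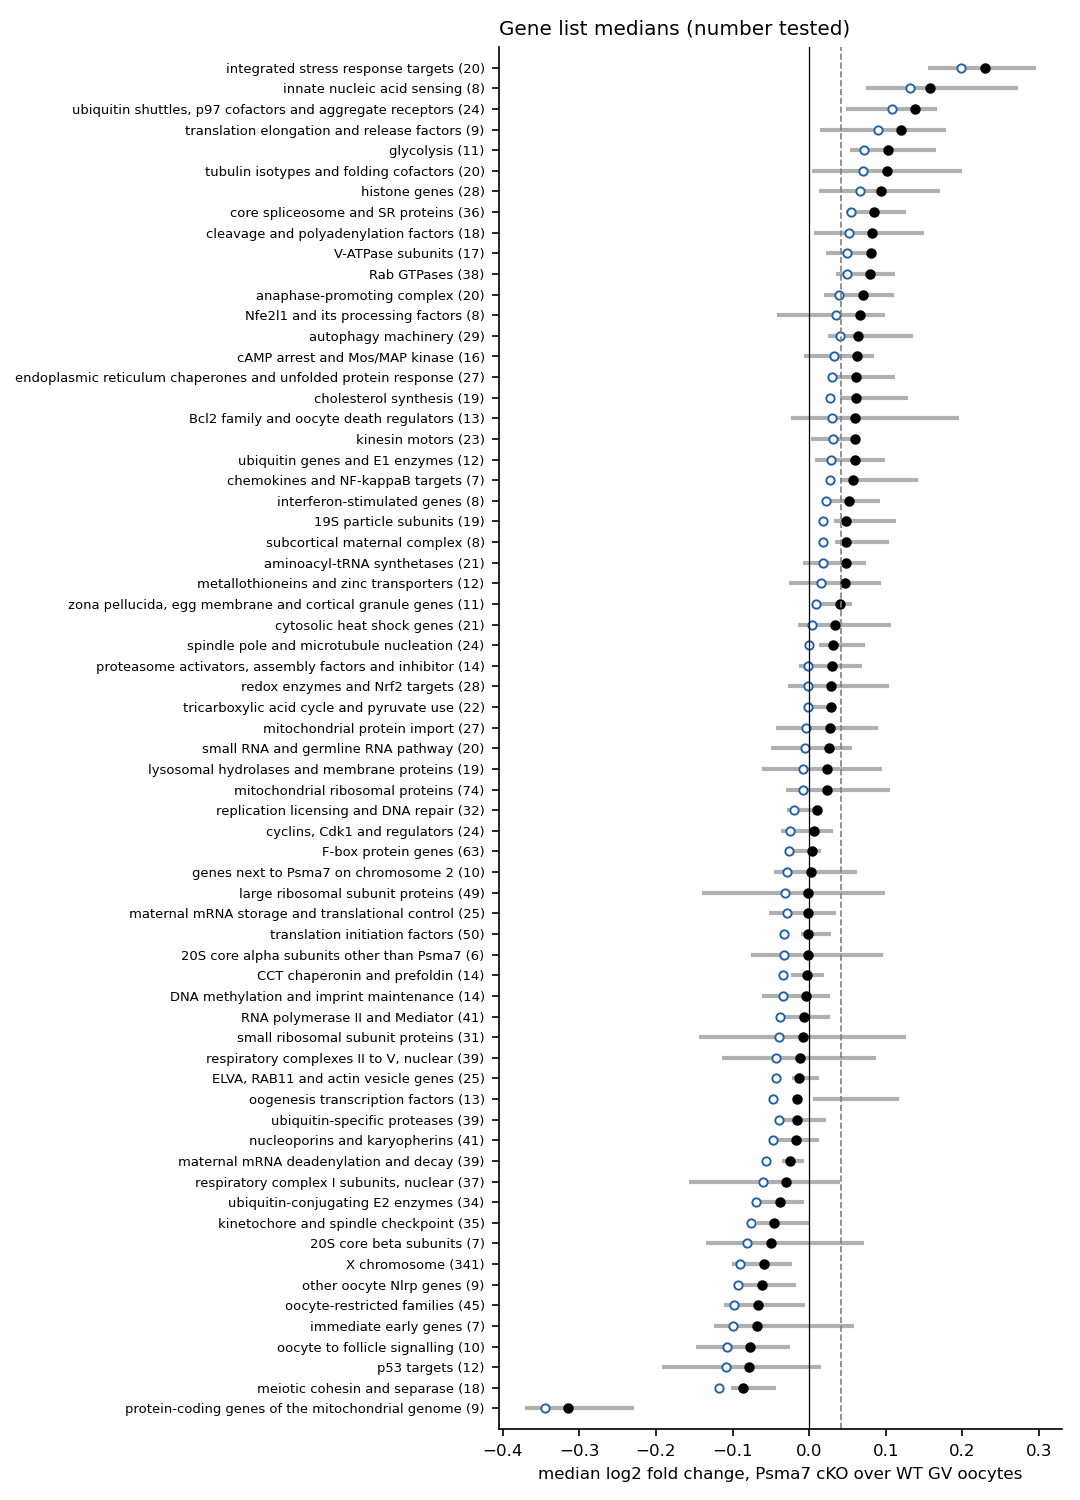
Median log2 fold change of the lists with at least 5 tested members, cKO over WT; black dots are medians, blue circles medians after rescaling and grey bars the range when 1 library is left out. The dashed line is the median of all transcripts, 0.042; stress response targets lie at 0.23 and genes of the mitochondrial genome at -0.31.

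Across all 66 lists, 27 had a median above that of all transcripts. Rescaling changed the sign of 12 medians and leaving out WT and cKO replicate 3 the sign of 28. Because rescaling moves all transcripts of a library alike, its sign changes only mark medians close to 0. The 19 that kept their sign in every alternative include stress response targets, ubiquitin shuttles, the 19S particle, autophagy, V-ATPase, spliceosome, glycolysis (0.10, 0.039 without the pair), cholesterol synthesis (0.061, 0.022 without the pair), anaphase-promoting complex (0.070, 0.0060 without the pair) and tubulins above 0, and cohesin, kinetochore, other Nlrp genes, follicle signals and mRNA decay below 0. Without the pair the median of all transcripts was 0.0285. Ubiquitin shuttles, autophagy, cholesterol synthesis, anaphase-promoting complex and tubulins then lay below it. The protein-coding list of the mitochondrial genome, outside the 66, also kept its sign, with a median of -0.31.

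The X chromosome leaned below the autosomes, a difference described here without a test. Its 341 tested transcripts had a median log2 fold change of -0.060, with 41.1% higher against 58.9% of all tested, while the 19 autosomes had medians from 0.022 to 0.068, a few of them just under 0 after rescaling. At an unadjusted p under 0.05, 20 X-linked transcripts were higher (5.87%) and 29 lower (8.504%), beside 7.62% and 3.06% of all, and none passed the adjusted threshold. In the most abundant of the 5 bins the X median was -0.11 with 24.1% higher, against 0.0040 on autosomes, which rescaling turned to -0.027. Without WT and cKO replicate 3 these medians were -0.042 and 0.020. Among abundant X-linked genes, and chosen after their values were seen, Phf6, a chromatin protein, had 46.2, 53.2, 53.2 and 46.6 FPKM in WT and 39.7, 35.8, 37.1 and 32.9 FPKM in cKO oocytes (-0.45, adjusted p 0.105). Dkc1, of RNA modification, had 67.6, 71.5, 73.3 and 63.9 FPKM in WT and 54.1, 58.6, 49.5 and 58 FPKM in cKO oocytes (-0.33, adjusted p 0.203). Neither overlaps between genotypes. By library, the median deviation of X-linked transcripts was 0.0545, -0.0116, 0.0483 and 0.0154 in WT replicates 1 to 4. In cKO replicates 1 to 4 it was 0.069, -0.0774, -0.1212 and 0.0009. The groups overlap, with cKO replicate 1 the highest of all libraries. The X median log2 fold change was -0.091 after rescaling and ran from -0.10 to -0.023 as single libraries were left out. Without WT and cKO replicate 3 it was 0.0038, against 0.027 on autosomes. In eggs it was 0.012, against 0.074 on autosomes.

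**Figure D4:**
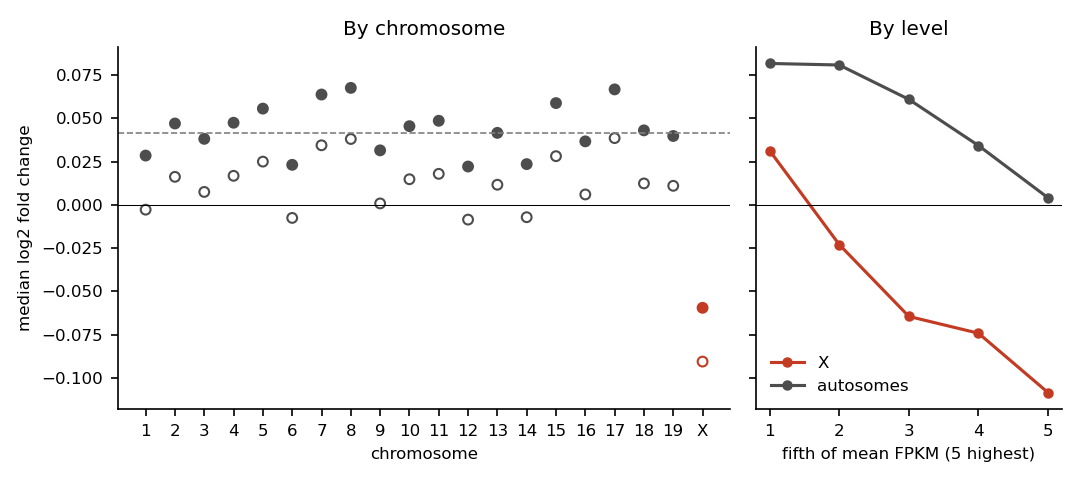
Left, median log2 fold change per chromosome (filled) and after rescaling (open), with the median of all transcripts dashed; right, medians of X-linked and autosomal transcripts in 5 bins of mean FPKM. The X chromosome lies at -0.060 and its most abundant bin at -0.11; rescaling turns the autosomal median of that bin below 0, and without WT and cKO replicate 3 the X median is 0.0038 and that bin is at -0.042 on the X and 0.020 on autosomes.

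Set beside MII eggs, whose libraries are separate, the small GV differences partly recurred. Of 610 transcripts higher in GV oocytes at an unadjusted p under 0.05 and tested in eggs, 457 (74.9%) were higher there too, against 59.9% of all 9170 tested at both stages. Of 300 lower ones, 181 (60.3%) were lower in eggs, against 40.1% of all. Across the 9170 transcripts the log2 fold changes of the stages correlated with r = 0.20; genes are not independent replicates. The labels do not say whether oocytes and eggs came from the same females.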

How the data were processed

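The authors deposited FPKM values for all 16 libraries; their processing notes name TopHat2 2.1.1, Cufflinks 2.2.1 and genome build mm10. Columns were matched to the labels by name and used without further scaling. Values below 1 FPKM were set to 1, log2 values of entries with a mean of at least 1 FPKM were fitted with limma 3.58.1 (trend, R 4.3.3), and p-values were adjusted by Benjamini-Hochberg over all 11062. The stage difference used all 16 libraries. Single values had two-sided exact permutation tests. Depth was read from the steps of small values; the method and limma were tested on simulated data. Positions came from GENCODE M21, with older names matched through RefSeq synonyms, and promoters from RefSeq. All else ran in Python 3.11.15 with pandas 2.3.3, numpy 2.4.6, matplotlib 3.10.9 and scipy 1.17.1.

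The naming rule took Psma7, called transcripts, those over 3-fold between means, and in each of 66 lists up to 4 members past an unadjusted p of 0.05 without overlap and the most abundant one. It gave 119 transcripts; the text leaves out 52 that were only the most abundant of a list. Members and lists were chosen with earlier results of these data known. Alternatives changed the floor (0.1 FPKM, or 1 FPKM added), the scaling, the filter (none, or 5 FPKM) and the trend, blocked on replicate number, fitted all 16 libraries, summed entries of a name, or left out each library. Leaving out both replicate 3 libraries was added after seeing the data.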

Additional observations from a re-analysis of the deposited data

Results flagged for a closer look

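In 14 of 228 groups of 4 libraries (transcripts and lists of the text) the highest or lowest value lay far from the other 3, by the gap to its neighbour over the whole range (Dixon's 95% limit); chance flags about 1 in 20 groups. In cKO replicate 3 these were Asns (15.3 FPKM), Fgf21 (2.31 FPKM), Gm13192 (37 FPKM), Egfr (low, 16.6 FPKM) and the median deviation of stress response targets (0.341). In WT replicate 3 they were Bcl2l10 (5777 FPKM), ND5 (66.2 FPKM), Ube2f (39.1 FPKM) and Gdf9 (low, 2196 FPKM). The others were Kctd21 (3.84 FPKM) and Tbcc (low, 39.2 FPKM) in cKO replicate 4, Mt2 (0.141 FPKM) in cKO replicate 1, Cnot11 (low, 51.5 FPKM) in WT replicate 2 and H2afj (low, 3.28 FPKM) in WT replicate 1. Asns, Fgf21, Egfr and Mt2 were chosen after their values were seen, so the number per library is no test. What sets replicate 3 apart was not tested.

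For 11 of the 92 tested transcripts in the text the genotype effect in GV oocytes minus that in eggs passed the limma interaction test, beside 140 of all 11062 (1.27%). Many transcripts in the text were named for their GV values, so the shares do not compare like with like. The difference was -3.54 for 4930524B15Rik, -1.97 for Asgr2(1), -1.16 for Ubb, -1.14 for Zp3, -1.06 for Lgmn, -0.64 for Tcl1b5(2) and -0.44 for Rab7. It was 1.59 for Kctd21, which only repeats the GV effect because all egg values were set to the floor, 1.42 for BC048502, 1.04 for Tnfsf13b and 0.66 for 7420426K07Rik, an uncharacterized gene near Gm33700. Of the 52 rule-named transcripts left out of the text, 3 passed: Rps13 (-2.25), Cpsf4l (-1.37) and Kpna2 (-0.79).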

How the results depend on the processing

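Psma7 and Mt1 passed in each alternative. Isg20, Kctd21 and 4930524B15Rik passed in each that tested them (all but the 5 FPKM filter), save the fit without a filter. The number that rose, 11, was 2 without a filter, 5 at a mean of at least 5 FPKM, 18 without the trend, 4 with replicate number as a block, 124 with all 16 libraries in 1 fit, 4 without WT and cKO replicate 3, and 3 to 16 with 1 library left out. The number that fell, 2, was 1 without a filter, 1 at 5 FPKM, 4 without the trend, 33 with all 16 libraries and 2 to 4 with 1 library left out. Unadjusted calls were 394 higher and 212 lower at 5 FPKM, where fewer transcripts were tested. Transcripts without overlap were 363 higher and 353 lower after rescaling, 833 and 412 without a filter, 225 and 172 at 5 FPKM, and 1050 and 826 without WT and cKO replicate 3, where 3 against 3 separate more easily. The overall median was 0.012 after rescaling and 0 without a filter. For other changes the cause was not tested.

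The replicate block left 757 higher and 245 lower at an unadjusted p. Replicate numbers do not pair samples: residuals of same-numbered libraries correlated at -0.010, 0.11, -0.49 and 0.066 across transcripts.

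Signs changed for some transcripts. With 1 library left out the log2 fold change ran from -0.21 to 0.018 for Psma2, -0.15 to 0.051 for Psmb2, -0.0296 to 0.12 for Hsp90aa1, -0.047 to 0.11 for Gdf9, -0.13 to 0.0073 for Bcl2l10, -0.16 to 0.31 for mt-Rnr2, -0.081 to 0.052 for Lamp1 and -0.50 to 0.50 for Asns. Without WT and cKO replicate 3 it was 0.14 for Psma2, 0.093 for Psmb2, -0.13 for Gdf9, 0.043 for Bcl2l10, -0.46 for Asns, -0.11 for Lamp1, 0.0078 for ND4 and 0.017 for COX2. After rescaling Lamp1 was at -0.025. FPKM gives shares of a library, so a change in RNA per cell is outside these values.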

Other observations

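Positions of the called transcripts, looked up after their values were seen, show some with neighbours that also differed at an unadjusted p. Of 28 tested neighbours of Ube2d-ps within 1 Mb, 7 were higher and 1 lower at an unadjusted p under 0.05, beside 7.62% and 3.06% of all transcripts. Of 42 neighbours of Dcpp3, 4 were higher and 1 lower, and of 14 of Gm33700, 3 were higher and 2 lower (Cep70 and Nmnat3). The windows of Kctd21, Mt1, Gm13192, Ngrn and Sept14 held at most 1 in each direction. Gm33700 at chr9:98888211-98888907 lies beside Prr23a2 and Prr23a3, a pair of related protein-coding genes, and the uncharacterized protein-coding gene 7420426K07Rik. Prr23a2 had 1.198, 0.281, 0.286 and 0.701 FPKM in WT and 2.46, 2.33, 1.43 and 1.37 FPKM in cKO oocytes (log2 fold change 0.81, adjusted p 0.198), Prr23a3 0.76, adjusted p 0.178 and 7420426K07Rik 0.56, adjusted p 0.0949. Prr23a2 and 7420426K07Rik did not overlap between genotypes, and Prr23a3 did. Near Kctd21 lies Alg8, a glycosylation enzyme, at chr7:97371606-97392185, with 1.88, 2.03, 2.11 and 2.003 FPKM in WT and 3.35, 2.91, 3.28 and 3.48 FPKM in cKO oocytes (0.70, adjusted p 0.07896), while Pak1 in the same window was lower at an unadjusted p. Within 1 Mb of Isg20 (11 tested neighbours), Psma7 (15) and 4930524B15Rik (10) no transcript passed an unadjusted p of 0.05, and 0 passed the adjusted threshold in limma.

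By name, the 42 families with at least 20 tested members ranged from Fbxw at -0.048, which was 0.00034 without WT and cKO replicate 3, to Cyp, the cytochrome P450 enzymes, at 0.19 (0.25 without the pair). In the Cyp family 15 of 21 were higher. At an unadjusted p under 0.05, 6 were higher and 1 lower, beside 7.62% and 3.06% of all transcripts. Cyp11a1 and Cyp19a1, also in the granulosa list, had log2 fold changes of 0.44 and 0.26. Cyp7b1, of oxysterol metabolism, had 8.001, 8.03, 7.41 and 7.48 FPKM in WT and 11.9, 10.4, 9.88 and 10.8 FPKM in cKO oocytes (0.47, adjusted p 0.121). Cyp2c29 (0.59, adjusted p 0.123) and Cyp2c69 (0.59, adjusted p 0.307) both lie on chromosome 19, the latter with overlap between genotypes; these 3 were chosen after their values were seen. RNA helicases of the Ddx family (0.14, 0.014 without the pair) and Wdr genes (0.12, 0.0084) followed. Ring finger genes, many of them ubiquitin ligases, had 48 of 62 Rnf members higher and a median of 0.064 (0.040 without the pair), with 8 higher and 0 lower at an unadjusted p, beside the same 7.62% and 3.06%. Antisense RNAs by GENCODE class had a median that turned around: with all libraries it was -0.055 over 100 tested, -0.084 after rescaling and 0.028 without the pair. For 9484 protein-coding transcripts it was 0.044, 0.014 and 0.024. Of the antisense RNAs 39% were higher, beside 58.9% of all transcripts, and at an unadjusted p under 0.05, 3 were higher and 13 lower, beside 7.62% and 3.06%.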
